A study of Drosophila melanogaster with 36 samples.

Results

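Odorant-binding protein genes were followed through the life cycle of Drosophila melanogaster by their signal at transcription start sites. The members are all genes in the authors' gene table whose symbol begins with Obp, and they number 44 of 12698 genes. Another 7 Obp symbols of the reference annotation (Obp50a, Obp50d, Obp50e, Obp57e, Obp84a, Obp85a and Obp93a) matched no entry and were not analysed here. Signal was measured by RAMPAGE, which sequences the 5′ ends of capped RNA, and is given in RPM (reads per 1000000 reads assigned to genes). A cDNA has a single 5′ end, so an RPM value does not grow with transcript length.

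All 36 libraries came from pooled whole animals of the y; cn bw sp strain, whose markers affect body and eye colour, with no second library for any stage. Embryos were taken in 24 windows of 1 h after egg laying; larvae as L1, L2 and wandering L3 with dark, light or clear guts; pupae at 1 to 5 days from the white prepupal stage; and adults of either sex at 5 days of age. Embryos, larvae with pupae, and adults went into 3 separate multiplexed libraries, and adult samples differed further in RNA reagent and sequencer, so values were tested within these sets and not across them. Depth, as reads recovered from the RPM step, was 698702 to 11856035 for an embryo window, 873086 to 14259966 for a larval and 1066282 to 16690598 for a pupal stage, with 8790853 for the male and 11281352 for the female library. Minus-strand genes were listed at 0 in all 5 pupal libraries, so pupal values are given for the 23 plus-strand members and not for the 21 minus-strand members. Pupal RPM and pupal depth therefore rest almost wholly on plus-strand reads, unlike those of other stages. In whole animals, fewer cells of a type and less RNA per cell cannot be told apart.

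Odorant-binding proteins are small secreted proteins, held in shape by disulfide bridges, that enclose hydrophobic ligands. Support cells of the insect olfactory and taste hairs release them into the fluid around the sensory dendrites, where they meet odorants and tastants before these reach the receptors. The family is also known outside the sense organs, for example in the seminal fluid, the fat body and the nervous system, and many of its genes lie in tandem arrays.

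The members had few and narrow start sites. Of the 44 members 37 (84.1%) had a single peak in the authors' list, against 59.8% of all genes. The peak with the highest score of a member had a median width of 17.5 bp (interquartile range 12 to 37.5 bp, lowest 3 and highest 261 bp), and the median over all genes was 82 bp (37 to 121 bp). No test was made of this difference, and members were not matched to other genes for signal. Obp47a, Obp58b and Obp83b, with leading peaks of 3, 4 and 5 bp, stayed at or below 5.66 RPM in every measured library. Among members with high signal, Obp99a and Obp56a had 235 and 110 bp, and Obp99b and Obp56d 40 and 33 bp. The part of signal in peak number and width was not tested. On genome build dm3, 25 members lay on chromosome arm 2R, 9 on 3R, 6 on X and 2 each on 2L and 3L.

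Start sites of 28 members fell into 9 groups of neighbours no more than 20000 bp apart. The largest held Obp56a, Obp56b, Obp56c, Obp56d, Obp56e and Obp56f at 2R:15585205-15600906, with Obp56b, Obp56c and Obp56d on the minus strand. Obp19a, Obp19b, Obp19c and Obp19d lay together at X:20286765-20291142, and Obp83cd, Obp83ef and Obp83g at 3R:1933838-1938051. Obp50b and Obp50c share both of their peaks and had identical values, so they are 1 measurement. The peak of Obp57b (2R:16391742-16391758) is also 1 of 2 peaks of Obp57c, and reads there cannot be told apart. The symbols Obp57a and Obp57c are each listed as a synonym of the other gene, and here Obp57c is FBgn0034509 (leading peak 2R:16391048-16391104) and Obp57a is FBgn0043535 (2R:16392596-16392686).

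Summed over the members, the signal was held mostly by Obp99a in the earliest embryos and differed in its leading member from stage to stage. The sum was 31.4 RPM at 0 to 1 h, of which Obp99a held 96.9%. It reached 2080 RPM at 9 to 10 h, was 771 RPM at 14 to 15 h and 2449 RPM at 23 to 24 h. In larvae it was 2925 RPM at L1, 3971 at L2, 6124 in dark-gut, 9923 in light-gut and 12010 in clear-gut L3. The plus-strand members alone summed to between 216 RPM on pupal day 1 and 15709 RPM on day 2, when Obp56a held 99.5%. In adults the sum was 3996 RPM in males and 2212 RPM in females. Members above 0 numbered 36 in males and 25 in females. Of all 12698 genes, 11604 were above 0 in the male library and 9944 in the female library. A lower female count was thus not particular to the members, but relative to its number the member set fell further. The part of this general difference in the member count was not tested. Obp22a, Obp51a, Obp56f, Obp56g, Obp56i, Obp57a, Obp69a, Obp19a and Obp19b were at 0 in every embryo and larval library.

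**Figure D1:**
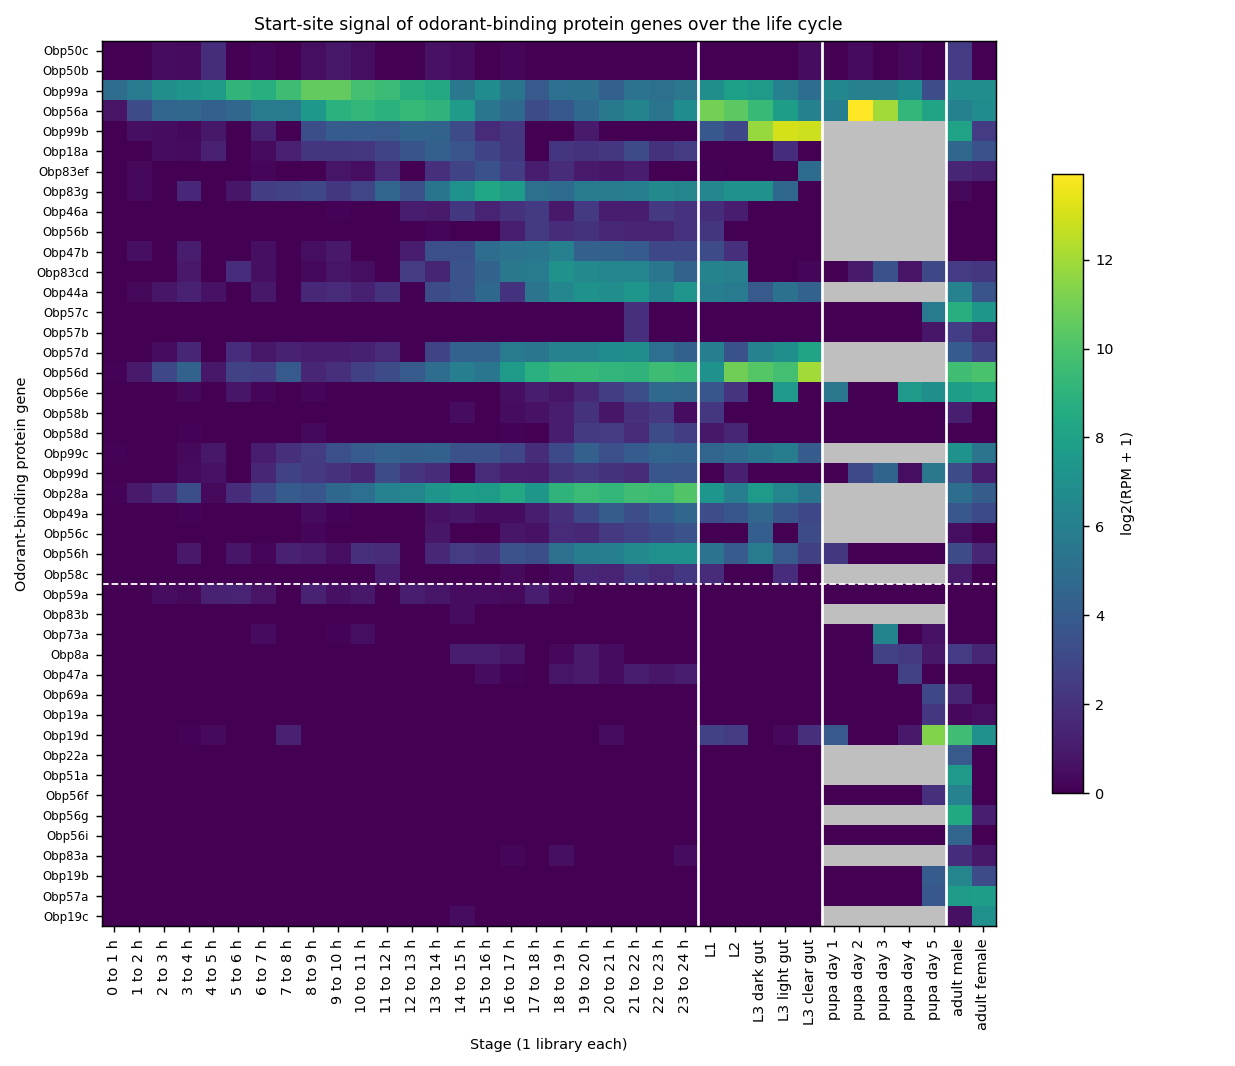
Signal of the 44 Odorant-binding protein genes in the 36 libraries, as log2(RPM + 1) on a colour scale, with stages along the horizontal axis and genes down the vertical axis; grey cells are pupal values of minus-strand genes, which were not measured. Pupal columns rest almost wholly on plus-strand reads and are not on the scale of the other columns. Obp99a and Obp56a are high in mid embryos, Obp28a and Obp56d in late embryos, Obp99b in L3 larvae, Obp56a again on pupal day 2, and Obp51a, Obp56f, Obp56i and Obp22a show signal in males with 0 in females.

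Embryos were compared in 6 periods of 4 h with 4 libraries each, all in 1 limma fit on log2(RPM + 1). The libraries of a period are neighbouring hours and not replicates, so each SD and SE includes change within the period. Of the 44 members 23 passed the filter of 2 RPM in 3 embryo libraries and entered the tests. Calls required a 2-fold change and a p below 0.05 after Benjamini-Hochberg adjustment over all 9940 genes tested. All 23 tested members changed over the 24 hours in a limma F test of a smooth curve, with adjusted p-values up to 5.36e-05, and so did 89.8% of all genes tested. The hour of highest signal fell at 20 to 24 h for 13 of the 23 (15.3% of all genes tested), at 16 to 20 h for 4 (9.92%), at 12 to 16 h for 5 (16.0%) and at 8 to 12 h for Obp99a alone (9.92%). Before 8 h it fell for 0 of the 23, whereas 32.9% of all genes tested peaked at 0 to 4 h and 15.9% at 4 to 8 h. Members that failed the filter are not in these counts. Among them Obp50b with Obp50c, Obp59a and Obp19d were highest before 8 h, at no more than 2.60 RPM.

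Obp99a, which lies on 3R next to Obp99c, was the earliest and highest member of the embryo. It read 30.4, 52.6, 119 and 146 RPM in the libraries from 0 to 4 h and 196, 551, 425 and 790 RPM from 4 to 8 h. All later hours stood above all earlier ones. Its mean was 87.1 ± 54.6 RPM (SD, n = 4) at 0 to 4 h and 490 ± 248 RPM (SD, n = 4) at 4 to 8 h, a log2 change of 2.57 ± 0.59 (SE; limma adjusted p = 0.00351). It was the 1 member called higher at this step (background 9.3% of all genes), with 0 lower (background 8.53%) and 2 members under an unadjusted p of 0.05. Of all 9940 genes tested, 2896 were under that p. edgeR on recovered reads called 3 higher, Obp99a, Obp99c and Obp99d, and 0 lower. Without the 3 to 4 h library limma called 2 members. In that library Obp56d read 20.5 RPM and Obp28a 9.21 RPM, against 0.868 and 0.289 RPM at 4 to 5 h, whereas others such as Obp99a rose between these hours. The cause was not tested.

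Obp99a went on to 1563, 1537, 880 and 729 RPM from 8 to 12 h, then read 440, 335, 46.1 and 107 RPM from 12 to 16 h and 41.3, 13.8, 33.1 and 35.1 RPM from 16 to 20 h. Its 2 highest hours thus lay next to each other, and it fell in both of the steps that followed. The change was -2.75 ± 0.59 from 8 to 12 h to 12 to 16 h (adjusted p = 0.00301) and -2.48 ± 0.59 to 16 to 20 h (adjusted p = 0.00436), with no overlap between the periods.

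Obp56a followed some hours behind. It read 18.2, 22.9, 55.4 and 51.5 RPM from 4 to 8 h, 170, 472, 591 and 471 RPM from 8 to 12 h, and 644, 528, 203 and 43.9 RPM from 12 to 16 h. From 16 to 20 h it was down to 26.1, 8.40, 13.2 and 25.8 RPM. The rise to 8 to 12 h was a log2 change of 3.51 ± 0.76 (adjusted p = 0.00221), and the fall to 16 to 20 h was -3.74 ± 0.76 (adjusted p = 0.00115), both without overlap.

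Obp99b, known also as tsx for its sex-specific expression in adults, and Obp18a had the same order of rise and fall at lower levels. Obp99b read between 0 and 1.34 RPM from 4 to 8 h and 9.28, 15.7, 15.5 and 13.8 RPM from 8 to 12 h. It was at 0 in 6 of the 7 libraries after 17 h. Its change to 8 to 12 h was 3.31 ± 0.51 (adjusted p = 0.000136), and that from 12 to 16 h to 16 to 20 h was -2.65 ± 0.51 (adjusted p = 0.000742). The second pair of periods overlapped, since 2.27 RPM at 15 to 16 h lay below 3.58 RPM at 16 to 17 h. Obp18a peaked at 18.4 RPM at 13 to 14 h and changed by 1.58 ± 0.45 into 8 to 12 h (adjusted p = 0.0165) and by -1.98 ± 0.45 out of 12 to 16 h (adjusted p = 0.00295), and edgeR did not call the latter change (adjusted p = 0.143).

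At 8 to 12 h against 4 to 8 h, limma called 5 members higher (background 14.1%) and 0 lower (background 3.3%). An unadjusted p under 0.05 was found for 7 of the 23 members and for 2984 of all 9940 genes, a similar share. The median log2 change was 0.28 over the 23 members and 0.22 over all genes. Obp99c rose from 0.868, 0, 1.18 and 2.86 RPM to 4.64, 9.77, 15.1 and 20.2 RPM (log2 change 2.59 ± 0.49, adjusted p = 0.000803). Its values were 2.40 RPM or above in every later embryo library. The fifth was Obp28a, described with the late genes, which changed by 2.63 ± 0.68 (adjusted p = 0.00875) with overlap between the periods. Calls of Obp18a and Obp28a were lost without the 11 to 12 h library, leaving 3, and each was also lost without 1 other library (Obp18a without 5 to 6 h, Obp28a without 4 to 5 h), with adjusted p from 0.0501 to 0.0676. edgeR called 3 members higher, Obp56a, Obp99b and Obp99c, and 0 lower. Median-of-ratios scaling also ended the call of Obp18a (1.34, adjusted p = 0.0521).

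A set of members came on between 12 and 16 h. Obp83cd and Obp83g are neighbours on 3R, and Obp83cd encodes a protein with a doubled odorant-binding domain. Obp83g read 7.08, 3.86, 6.66 and 22.3 RPM from 8 to 12 h and 10.0, 41.4, 138 and 330 RPM from 12 to 16 h. From 17 h on it read between 28.1 and 93.0 RPM. Obp83cd read between 0 and 0.751 RPM from 8 to 12 h and 4.46, 1.76, 10.8 and 20.8 RPM from 12 to 16 h, and its highest value, 137 RPM, came at 18 to 19 h. Their changes were 2.89 ± 0.81 for Obp83g (adjusted p = 0.0163) and 2.57 ± 0.56 for Obp83cd (adjusted p = 0.00335).

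Obp47b had a narrow course, from 1.11, 9.77, 9.68 and 30.3 RPM at 12 to 16 h to a maximum of 66.8 RPM at 18 to 19 h and 7.04 RPM at 23 to 24 h. Its rise at 12 to 16 h was 2.85 ± 0.56 (adjusted p = 0.00164). Obp56d changed by 2.79 ± 0.71 (adjusted p = 0.00947), Obp28a by 2.32 ± 0.68 (adjusted p = 0.022), and Obp46a, which never exceeded 4.20 RPM, by 1.38 ± 0.34 (adjusted p = 0.00733). In all, 6 members were called higher at 12 to 16 h (background 10.8%) and Obp99a lower (background 4.84%), and the median log2 change was 0.28 over members and -0.09 over all genes. Scaling by the median of ratios between libraries moved the all-gene median to 0.15 and called 7 members higher and 1 lower, while all genes called went from 1076 higher and 481 lower to 1312 higher and 196 lower. The call of Obp83g was lost without the 9 to 10 h, 14 to 15 h or 15 to 16 h library (log2 change 2.13 to 2.59, adjusted p 0.0598 to 0.0917). That of Obp28a was lost without the 8 to 9 h, 9 to 10 h, 14 to 15 h or 15 to 16 h library (log2 change 1.93 to 2.24, adjusted p 0.0586 to 0.101).

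Obp28a and Obp56d, both known from adult chemosensory organs, were the highest members of the late embryo. Obp28a read 84.7, 145, 222 and 191 RPM at 12 to 16 h, 333, 167, 541 and 732 RPM at 16 to 20 h and 604, 816, 723 and 1117 RPM at 20 to 24 h, and neither of these later steps was called. Obp56d read 14.5, 30.9, 62.4 and 43.5 RPM at 12 to 16 h and 191, 464, 626 and 653 RPM at 16 to 20 h. After that it stayed between 525 and 770 RPM. The step of Obp56d at 16 to 20 h was 3.67 ± 0.71 (adjusted p = 0.000801), without overlap.

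The step from 12 to 16 h to 16 to 20 h had more called members than any other, 9 higher and 4 lower. The background was 8.49% higher and 16.9% lower, and the median log2 change was 0.97 over members and -0.50 over all genes. Besides Obp56d and Obp47b (2.06 ± 0.56, adjusted p = 0.0104), Obp83cd changed by 3.26 ± 0.56 (adjusted p = 0.000278). Obp57d, known from the taste of host plants, read 0, 6.25, 19.8 and 19.7 RPM before the step and 52.5, 43.8, 70.6 and 71.2 RPM after it (2.99 ± 0.71, adjusted p = 0.0041). Obp56h, a gene tied to male mating behaviour in adults, read 0, 1.95, 4.26 and 3.41 RPM and then 10.6, 9.00, 34.4 and 56.8 RPM (2.94 ± 0.55, adjusted p = 0.000542). Neither of these overlapped.

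The other 4 that rose were Obp44a, known from the glia of the brain, with Obp56b, Obp56e and Obp49a. Obp44a read 0, 8.01, 10.8 and 24.6 RPM and then 3.08, 40.8, 85.0 and 139 RPM, so that its 16 to 17 h value lay within the earlier range (2.39 ± 0.82, adjusted p = 0.0343). Obp56b went from 0, 0.195, 0 and 0 RPM to 1.29, 4.20, 2.40 and 3.10 RPM (1.78 ± 0.25, adjusted p = 3.31e-05). Its reads from 17 to 20 h were 7, 10 and 3. Obp56b passed the filter only with these later libraries, so its selection and its call share values. It was also called without the filter. Obp56e was at 0 in all 4 earlier libraries and between 0.497 and 2.06 RPM in the later ones (1.03 ± 0.37, adjusted p = 0.042), which is a few reads in the shallower libraries. Obp49a, known from the taste of bitter compounds, went from between 0 and 0.775 RPM to between 0.397 and 7.23 RPM (1.14 ± 0.39, adjusted p = 0.0323), with overlap.

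Of the 9 that rose, 4 lost their call when some libraries were left out, while Obp56b, Obp56d, Obp83cd, Obp56h and Obp57d were called without any 1 of the 8. Obp44a was not called without the 12 to 13, 13 to 14, 17 to 18, 18 to 19 or 19 to 20 h library (log2 change 1.44 to 2.50, adjusted p 0.0575 to 0.168). Obp56e lost its call without any 1 of 7 of the 8 libraries, all but 16 to 17 h (0.83 to 1.11, adjusted p 0.0575 to 0.121). Obp49a was not called without the 12 to 13, 13 to 14, 15 to 16, 18 to 19 or 19 to 20 h library (0.67 to 1.20, adjusted p 0.0504 to 0.141), nor was Obp47b without 12 to 13 h (1.35, adjusted p = 0.0528). Without the 12 to 13 h library 5 members were called higher, and a fit of the 8 libraries alone also called 5. Median-of-ratios scaling moved the all-gene median at this step from -0.50 to 0.12 and the calls among all genes from 844 higher and 1682 lower to 1399 higher and 421 lower. Under that scaling 13 members were higher and the same 4, Obp56a, Obp99a, Obp99b and Obp18a, were lower.

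**Figure D2:**
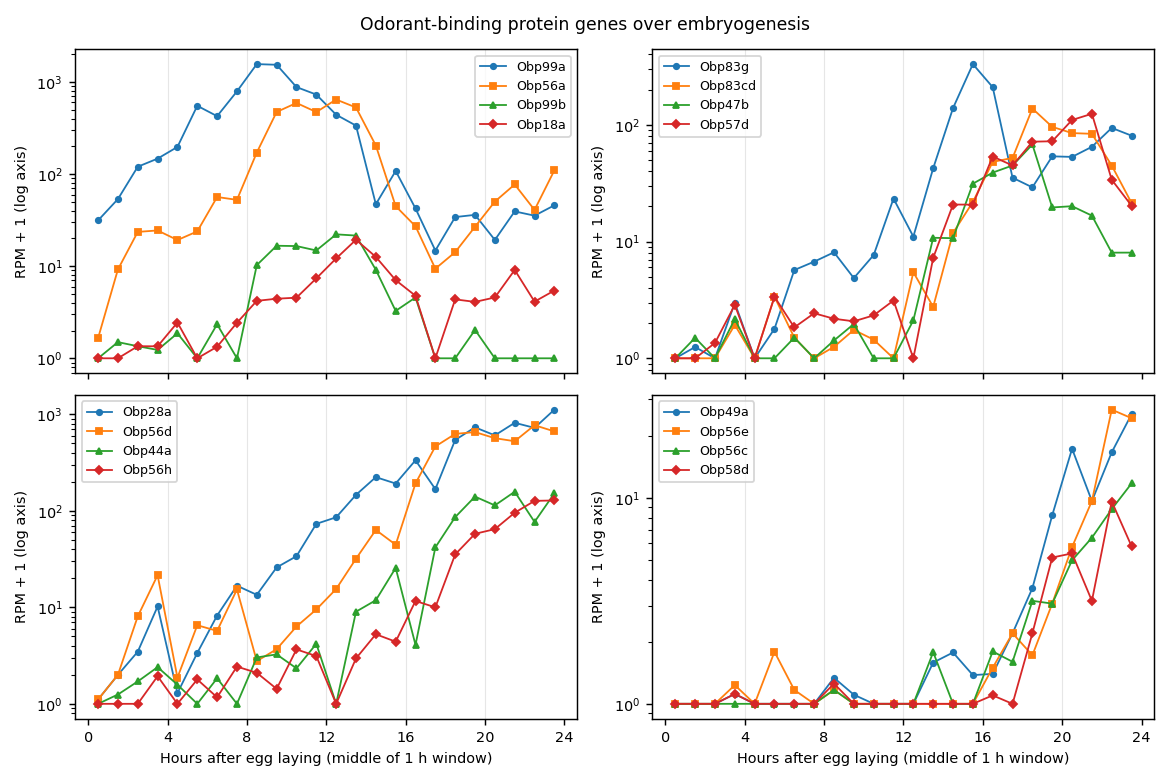
Signal of 16 members in the 24 embryo libraries, as RPM + 1 on a log axis against the middle of each 1 h window after egg laying; each point is 1 library. Obp99a is highest at 8 to 9 h (1563 RPM) and Obp56a at 12 to 13 h (644 RPM), Obp83g is highest at 15 to 16 h (330 RPM), Obp28a climbs to 1117 RPM at 23 to 24 h, and the 4 genes of the last panel stay below 8 RPM until 20 h.

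The last 4 h held the highest hour of 13 members, of which 6 passed the test against 16 to 20 h. Obp49a read 16.3, 8.64, 15.6 and 24.4 RPM from 20 to 24 h, above all its earlier values (log2 change 2.40 ± 0.39, adjusted p = 0.000229). Obp56e read 4.77, 8.64, 25.8 and 23.3 RPM, also above all earlier hours (2.76 ± 0.37, adjusted p = 4.31e-05). Obp56c did the same with 3.97, 5.40, 7.81 and 10.7 RPM (1.72 ± 0.29, adjusted p = 0.000389), and Obp56h with 63.6, 94.5, 126 and 127 RPM (2.18 ± 0.55, adjusted p = 0.0125). The neighbours Obp58c and Obp58d overlapped with the period before. Obp58c read 1.59 to 3.70 RPM on 3 to 10 reads a library (1.28 ± 0.31, adjusted p = 0.00902). Obp58d read 2.16 to 8.59 RPM on 4 to 13 reads (1.56 ± 0.38, adjusted p = 0.00907). Except for Obp56h, each of the 6 passed the filter only with its 20 to 24 h libraries, so its selection and its call share values. Without the filter limma called the same 6.

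At 20 to 24 h against 16 to 20 h, 6 members were therefore higher (background 4.52%) and 0 lower (background 2.27%), and 10 had an unadjusted p under 0.05. Of all 9940 genes tested, 1739 had such a p. The median log2 change was 0.86 over members and 0.16 over all genes. Median-of-ratios scaling kept 6 higher and added Obp47b as lower, with all genes moving from 449 higher and 226 lower to 438 higher and 338 lower. The count depended on the test: limma with an added constant of 0.1 or of 5 called 3 higher, and edgeR on recovered reads called 0 higher and 0 lower members here and 39 higher and 60 lower of 9922 genes. Without the 17 to 18 h library 3 members were higher, with Obp58c (1.09, adjusted p = 0.0517), Obp58d and Obp56h no longer called. The calls of Obp58d and Obp56h were also lost without the 16 to 17 h library, and that of Obp58d without 22 to 23 h. Over these fits the adjusted p ran from 0.0538 to 0.0605 for Obp58d and from 0.0634 to 0.0745 for Obp56h. Without the 19 to 20 h library 1 member was called lower.

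Within a cluster, embryo courses were alike for some neighbours and not for others. The following Pearson correlations of log2(RPM + 1) are over the same 24 hourly libraries, which share depth and the general course of development, and are given as a description. Obp56b, Obp56c, Obp56d and Obp56e had r of 0.71 to 0.95 among themselves, whereas Obp56a, at the end of the same array, had r of -0.25 to -0.03 with each of them. Obp58b, Obp58c and Obp58d had r of 0.75 to 0.89. Obp83g had r of 0.76 with Obp83cd and 0.72 with Obp83ef, and those had 0.44 with each other. Obp99a with Obp99c had r of -0.01, and Obp99b with Obp99d 0.12.

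Other chemosensory and sensory organ genes were counted in the same fit. Sensory organ genes are represented by 9 in the table, of which 7 were tested, and 5 rose at 4 to 8 h (ato, Poxn, pros, sens and sv, all transcription factors of the sensory organ lineage), when Obp99a alone was called among the odorant-binding protein genes. Their median log2 change at that step was 1.95, against 0.20 over the 23 members and 0 over all genes. At 8 to 12 h ato fell, at 12 to 16 h nompA and nompC, which encode a dendritic cap protein and a mechanosensory channel, rose while sens and sv fell, and at 16 to 20 h nompA and Poxn fell. Ionotropic receptors numbered 9, with 6 tested: Ir40a rose at 4 to 8 h, Ir25a and Ir93a rose at 8 to 12 h, and Ir40a fell at 16 to 20 h. Odorant receptors numbered 2 and gustatory receptors 3, with 1 of each tested, and Or22a fell at 8 to 12 h. Of 18 other secreted or membrane chemosensory genes 4 were tested: Snmp2 rose at 8 to 12 h, EbpIII and Phk-3 at 12 to 16 h and EbpIII at 16 to 20 h. No call was made in these lists at 20 to 24 h, where 2 of the other chemosensory genes had an unadjusted p under 0.05. Differences between the lists were not tested.

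Larvae were dominated by 3 members in turn. Obp56a read 2103 RPM at L1, 1372 at L2 and 706, 221 and 69.1 RPM in dark-gut, light-gut and clear-gut L3. Obp99b went the other way, with 12.9 RPM at L1, 7.04 at L2 and 3492, 8245 and 7437 RPM in the 3 L3 libraries, the last resting on 41735 reads. Obp56d read 136 RPM at L1 and 1962, 1206, 858 and 4066 RPM in the later libraries. With 1 library a stage these are single values, and no test was made among larval stages.

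The order of levels among the other larval members was also uneven. Obp57d read 63.5 and 10.4 RPM at L1 and L2 and 71.0, 122 and 277 RPM in L3. Obp83g read 85.5, 142, 144 and 25.6 RPM and was at 0 in clear-gut L3. Obp28a stayed between 40.8 and 180 RPM and Obp99a between 32.1 and 229 RPM. Obp83cd read 74.2 and 65.6 RPM at L1 and L2 and no more than 0.178 RPM in L3. Obp56e was listed at 0 in dark-gut and clear-gut L3 and at 179 RPM in light-gut L3. The dark-gut library was the shallowest of the larvae, with 873086 reads (1 read is 1.15 RPM). It had 5520 genes above 0, against 9063 to 9968 in the other larval libraries, so a 0 there says less.

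**Figure D3:**
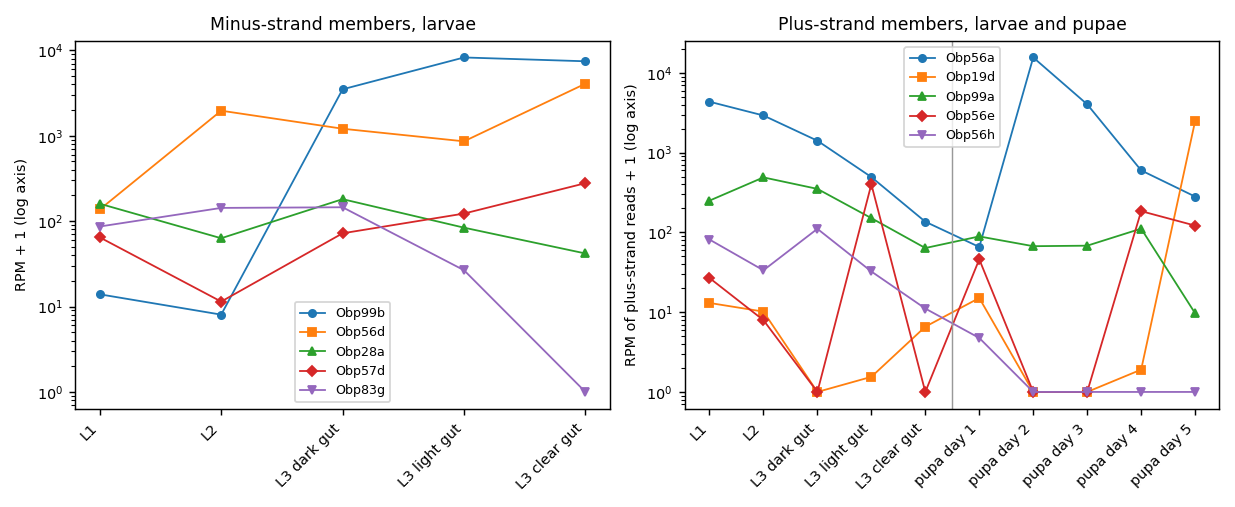
Signal of leading members on log axes, each point 1 library: minus-strand members in the 5 larval libraries as RPM + 1 (left), and plus-strand members in larvae and pupae as RPM of plus-strand reads + 1 (right), with a vertical line between larvae and pupae. Obp99b stands between 3492 and 8245 RPM in the 3 L3 libraries and Obp56a at 15637 RPM on pupal day 2, Obp19d is high on day 5, and Obp56h is at 0 from day 2 on.

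Larvae and pupae were compared on plus-strand genes, each library rescaled to 1000000 plus-strand reads. Of the 23 plus-strand members 7 passed the filter, among 5404 genes tested. Obp56h was the 1 member called, lower in pupae (background 1.52%), and 0 were higher (background 1.48%), with 3 members under an unadjusted p of 0.05. Of all 5404 genes tested, 1162 were under that p. On this scale Obp56h read 80.5, 32.5, 110, 31.4 and 10.1 RPM in the larvae and 3.75 RPM on pupal day 1, and it was at 0 on days 2 to 5. The groups did not overlap, and the log2 change was -4.89 ± 1.02 (adjusted p = 0.0197). Obp56h passed the filter only with its larval libraries, so its selection and its call share values. It was also called without the filter. The median change was -0.16 over the 7 members and 0.62 over all genes, which median-of-ratios scaling made 0.44. On RPM as deposited the all-gene median was 1.46, with 1112 genes higher and 106 lower against 80 and 82 in the rescaled fit.

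That call rested on few libraries. It was lost without L1, L2 or pupal day 2, 3 or 4 (log2 change -4.96 to -4.64, adjusted p 0.0524 to 0.0653), and without clear-gut L3 2 members were called lower. edgeR on recovered reads gave an adjusted p of 0.108 for Obp56h and called 0 of 5404 genes in either direction.

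The other 6 tested plus-strand members were not called, and the highest of them differed widely between pupal days. Obp56a read 4357, 2926, 1412, 494 and 135 RPM of plus-strand reads in the larvae and 64.7, 15637, 4040, 599 and 281 RPM on pupal days 1 to 5. The day 2 value rests on 47686 reads. Its groups overlapped and the change was not called (-0.16 ± 1.23, adjusted p = 0.96). Obp19d was at or below 14.1 RPM in all larvae and on pupal days 1 to 4 and reached 2484 RPM on day 5 (1.14 ± 1.79, adjusted p = 0.754). Obp99a had values of 62.8 to 489 RPM in larvae and 88.2, 66.2, 67.2, 111 and 8.69 RPM in pupae (-1.98 ± 0.76, adjusted p = 0.148).

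Several members appeared almost wholly in a single pupal library. Obp73a read 77.8 RPM on day 3 and 0.599 RPM on day 5, and it was at 0 on the other pupal days and in both adults. Obp57c read 52.7 RPM on day 5, Obp19b 15.5 RPM, Obp57a 12.8 RPM, Obp69a 7.13 RPM, Obp19a 3.59 RPM and Obp56f 2.88 RPM, and each was at 0 on days 1 to 4. Except for Obp57c, which had 2.70 RPM at 21 to 22 h in the peak it shares with Obp57b, these day 5 members had no signal in embryos or larvae. Plus-strand members above 0 numbered 5 on day 1 and 15 on day 5, but depth differed, with 1066282 reads on day 1 (1 read is 0.938 RPM) and 16690598 on day 5 (1 read is 0.0599 RPM), and all genes above 0 went from 4625 to 5495. The part of depth in this count was not tested.

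Adults were compared as 1 library per sex, without a test, from ratios with exact conditional 95% intervals that cover counting error only. Among the 29 members with at least 20 reads in the higher library, 13 were 4-fold or more higher in the male (background 24.0% of 10911 genes) and 1 was 4-fold or more higher in the female (background 12.4%). Since Obp50b and Obp50c are 1 measurement, the 13 hold 12 separate values. The median log2 ratio of male to female over the 9640 genes above 0 in both was -0.27, and after median-of-ratios scaling 14 members were higher in the male and 1 in the female.

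The members with signal in males and none in females include genes whose products are known seminal fluid proteins. Obp51a read 181 RPM in the male (1592 reads) and 0 in the female, at least 681-fold higher against a floor of 3 reads in the female library. Obp56f read 70.9 RPM (at least 266.5-fold higher), Obp56i 22.6 RPM (at least 85.1-fold), Obp22a 14.1 RPM (at least 53.0-fold) and Obp50b with Obp50c 4.55 RPM (at least 17.1-fold), all with 0 in the female. Obp56g, a protein of the ejaculatory bulb that takes part in forming the mating plug, read 356 RPM in the male and 1.24 RPM in the female, a ratio of 287 (171 to 525).

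Markers of the male accessory gland and ejaculatory tract were higher in the male by 4-fold or more in all 23 of the entries in the table, with a summed 40199 RPM against 44.6 RPM in the female. Egg coat and yolk genes were higher in the female in all 18, with 60338 RPM against 126 RPM in the male. Of 17 other secreted or membrane chemosensory genes with at least 20 reads, 6 were 4-fold or more higher in the male and 0 in the female. The part of reproductive tissues in the ratios of the Obp genes was not tested.

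Male excess was also seen in members with signal at other stages. Obp99b read 262 RPM in the male and 4.43 RPM in the female, a ratio of 59.2 (44.7 to 80.0). Obp19d read 815 and 133 RPM (ratio 6.15, interval 5.82 to 6.51), Obp44a 71.3 and 11.3 RPM (6.29, 5.19 to 7.66) and Obp19b 78.9 and 8.07 RPM (9.79, 7.86 to 12.3). Obp99d (8.30 and 1.06 RPM) and Obp56h (8.19 and 1.77 RPM) were 7.81 and 4.62 times higher in the male on under 100 reads each. Obp19c was the exception, with 0.569 RPM in the male and 124.5 RPM in the female, 219-fold higher in the female (93.6 to 675). Its start site lies between those of Obp19b and Obp19d, both higher in the male, and its only signal before the adult was 0.387 RPM at 14 to 15 h among embryos and larvae.

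**Figure D4:**
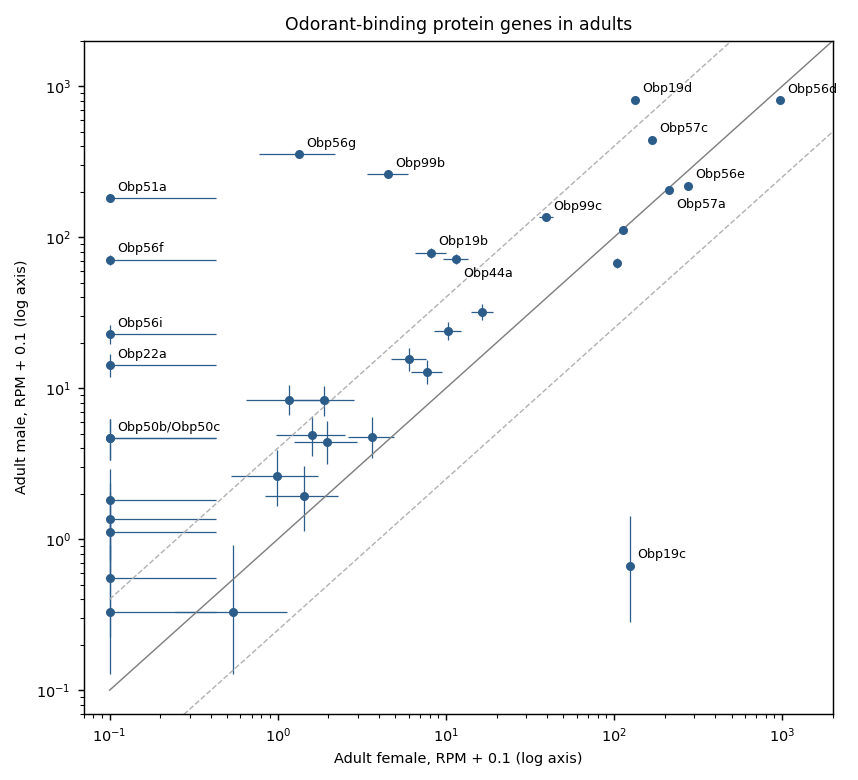
Signal of the members in the adult male (vertical axis) against the adult female (horizontal axis), both as RPM + 0.1 on log axes, with bars for exact Poisson 95% intervals of the counts. The solid line marks equal signal and the dashed lines 4-fold; Obp51a, Obp56f, Obp56i, Obp22a and Obp50b with Obp50c sit at 0 in the female, and Obp19c is the 1 member far below the lower dashed line.

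Among other abundant adult members, some were near to equal in the sexes. Obp56d read 813 RPM in the male and 966 RPM in the female (ratio 0.842, interval 0.817 to 0.868), Obp56e 220 and 277 RPM (ratio 0.794, on 1931 and 3120 reads) and Obp57a 206 and 212 RPM (0.973, 0.915 to 1.04). Obp99a was at 111 and 113 RPM. Others within 4-fold were less equal. Obp57c read 443 and 168 RPM (2.64, 2.50 to 2.79) and Obp99c 136 and 39.4 RPM (3.46, 3.10 to 3.86). Obp56a was higher in the female, with 67.5 RPM in the male and 104 RPM in the female (0.649, 0.587 to 0.717). Obp73a, Obp46a, Obp47b, Obp56b and Obp58d, which had signal earlier, were at 0 in both sexes. A count of 0 allows up to 0.341 RPM in the male and 0.266 RPM in the female.

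The remaining 12 members, Obp47a, Obp57b, Obp57a, Obp59a, Obp58b, Obp69a, Obp83a, Obp83b, Obp83ef, Obp99d, Obp8a and Obp19a, were low at most stages. Their highest embryo values ran from 0 to 12.5 RPM, that of Obp99d at 22 to 23 h. Obp83ef reached 29.4 RPM in clear-gut L3, and Obp99d 44.5 RPM on pupal day 5. Apart from Obp57a, none of the 12 exceeded 8.30 RPM in an adult. Obp83a and Obp83b, known as abundant proteins of the adult antenna, read 2.50 and 0 RPM in whole males and 0.886 and 0 RPM in whole females, and Obp59a, known from humidity sensing in the antenna, was at 0 in both.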

How the data were processed

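The members and gene lists were chosen with earlier results of these data known. Start-site signal per gene was deposited by the authors in RPM, and each of the 36 columns summed to 1000000. The authors' deposited peak list gives each peak a score, used here only to pick a gene's leading peak, since no source says what it stands for. The submitters' processing notes name dm3, STAR and Cufflinks, without version or role. The counting of reads and any removal of duplicates are not given in the sources used here.

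Of the 12698 gene identifiers 12089 had a symbol in a reference annotation of a later build, used for names only. In 35 libraries the values were whole multiples of the smallest step (100% within 0.01 of a read), which gave the reads; the 16 to 17 h library was left without recovered reads. Per the labels' protocols, RNA was selected by exonuclease digestion, template switching and cap trapping.

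Tests used limma 3.58.1 in R 4.3.3 (lmFit, eBayes with a trend) on log2(RPM + 1), keeping genes that reached 2 RPM in 3 or more libraries, with 18 residual degrees of freedom in embryos and 8 for pupae against larvae. Fold changes are on the log2(RPM + 1) scale, which understates low genes. The embryo course was a natural spline with 5 degrees of freedom. The alternative count test was edgeR 4.0.16 (quasi-likelihood). Adult ratios and intervals used scipy 1.17.1 on recovered reads, and reads without molecular identifiers are not independent molecules. Steps were tested on simulated data. Members described with values were called in a comparison, were among the 5 with the highest single-library RPM in embryos, larvae, pupae or adults, or differed 8-fold or more between the sexes with at least 20 reads; the others are given by ranges, and those among them with values of their own were chosen after their values were seen. Libraries of a period share no stage, so p-values measure the spread between neighbouring stages.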

Additional observations from a re-analysis of the deposited data

Results flagged for a closer look

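Within 109 sets of a member and a group of 4 or 5 libraries, 13 flags were raised by Dixon's test for a library apart from the rest. No chance rate applies to this count. A set entered only if a library reached 2 RPM, and a single value among zeros is always flagged. Some members were also picked for high single-library values, and Obp50b and Obp50c were counted separately though they are 1 measurement. Since the libraries of a group are successive stages, such a value need not be an aberrant library. In embryos these were the shared value of Obp50b and Obp50c of 2.60 RPM at 4 to 5 h, Obp57c at 2.70 RPM at 21 to 22 h, and Obp18a at 6.38 RPM at 11 to 12 h (others 3.21 to 3.55) and at 0 RPM at 17 to 18 h (others 3.10 to 3.78). In larvae Obp56b stood alone at 3.30 RPM in L1 and Obp18a at 2.56 RPM in light-gut L3.

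In pupae the single values were Obp56h at 3.75 RPM on day 1 and Obp73a at 77.8 RPM on day 3. On day 5 they were Obp57c at 52.7 RPM, Obp19b at 15.5 RPM and Obp56f at 2.88 RPM, and Obp99a was low at 8.69 RPM against 66.2 to 110.6 RPM on the other days.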

How the results depend on the processing

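Across 493 alternative fits of single called members none changed direction, 422 kept the call and 71 lost it. Fits in which the member failed the filter are not among these. In fits of the 8 libraries alone this held for Obp46a at 12 to 16 h and for Obp49a and Obp56e at 16 to 20 h. Counts of members called higher moved by more than 1.5 times as follows. At 4 to 8 h edgeR on recovered reads gave 3 and omitting the 3 to 4 h library gave 2, against 1. At 8 to 12 h edgeR gave 3, against 5. At 16 to 20 h the 8 libraries alone gave 5, against 9. At 20 to 24 h added constants of 0.1 and 5 each gave 3 and edgeR gave 0, against 6, and 1 member was lower with a constant of 5 and with median-of-ratios scaling, against 0. edgeR called 0 members lower in pupae, against 1, and a 2-fold limit gave 20 members higher in the adult male, against 13. Leaving out a library in turn gave 1 to 2, 3 to 5, 4 to 9, 5 to 12 and 3 to 6 members higher over the 5 embryo steps and 0 to 0, 0 to 0, 1 to 1, 4 to 4 and 0 to 1 lower. It gave 0 to 0 higher and 0 to 2 lower in pupae and 22 to 23 with a course. All-gene calls for pupae against larvae ran from 5 to 418 higher and 28 to 189 lower on leaving out a library. The cause of these moves was not tested. edgeR on all 24 embryo libraries was not run, since reads of the 16 to 17 h library were not recovered; the 23-library fit was chosen after seeing the data. No paired analysis was possible because the labels carry no replicate numbers. No stage has a replicate library, minus-strand pupal values were not measured, and 1 read was worth up to 1.43 RPM in the shallowest library.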
